A study of Mus musculus with 20 samples.

Results

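Sgk1, Nherf1 and 6 genes that work beside them in epithelial ion transport were followed in mouse DC2 cells under fluid shear stress and after silencing of Ift88. The 8 genes, Sgk1, Nherf1, Nherf2, Ezr, Slc9a3, Cftr, Scnn1a and Nedd4l, were taken by symbol from the 21509 protein-coding genes measured by RNA-seq, and each symbol occurred once. DC2 is an immortalized line from principal cells of the distal caput epididymis of the mouse. In the first experiment, 6 libraries came from cells exposed for 3 h to fluid flow with a shear stress of 1 dyn/cm2 (flow) and 6 from cells left without flow (static). The methods of the paper state that both were seeded in microfluidic channels, kept in medium with dihydrotestosterone and held in low serum before the stimulus. In the second, 4 libraries came from cells transfected with Ift88 siRNA and 4 from cells with control siRNA. The paper describes the first as a mixture of siRNAs against Ift88 and the second as scrambled, and states that these cells were under flow, which their labels do not name. All 20 libraries come from this 1 line, and nothing in the labels says that libraries of a group were separate cultures, so the p-values measure the spread between these libraries.

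SGK1 is a serine/threonine kinase whose mRNA is made quickly after serum, glucocorticoids or osmotic stress, and which is switched on by PDK1 and the mTORC2 complex. It phosphorylates the ubiquitin ligase NEDD4L, which then removes less of the epithelial sodium channel, of which SCNN1A is a subunit, from the apical membrane. NHERF1 and NHERF2 are scaffolds whose PDZ domains hold the sodium/proton exchanger NHE3 (encoded by Slc9a3) and the chloride channel CFTR, and ezrin (Ezr) ties these complexes to actin. In the epididymal duct, principal cells take up sodium and water and secrete anions, which sets the fluid around the sperm.

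Levels are in TPM, the share of transcripts per 1000000 after division by transcript length, and changes are differences of mean log2(TPM + 1). A gene was called where its limma p-value, adjusted over all genes tested, was under 0.05 and its change was over 1.5-fold. Among the members, Sgk1 was called under flow and Nherf1 with Ift88 siRNA, so the sequence before their annotated starts is shown. RefSeq promoter windows on GRCm38.p6 gave 6 starts for Sgk1, 2 for Nherf2 and 1 each for Nherf1, Ezr, Slc9a3 and Cftr. The windows below are the 250 bases before 2 Sgk1 starts and the Nherf1 start, each on the plus strand, with motif matches in capitals. Both Sgk1 starts lie inside the annotated gene. The first window holds a match to the glucocorticoid receptor site 189 bases before its start, and the second ends at the start of the principal transcript.
Sgk1, chr10:21993640-21993889: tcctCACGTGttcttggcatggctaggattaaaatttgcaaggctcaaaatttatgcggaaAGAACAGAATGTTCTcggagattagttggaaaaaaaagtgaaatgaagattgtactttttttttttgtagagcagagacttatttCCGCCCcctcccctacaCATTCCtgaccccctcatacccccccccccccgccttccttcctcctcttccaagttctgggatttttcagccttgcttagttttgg
Sgk1, chr10:21994416-21994665: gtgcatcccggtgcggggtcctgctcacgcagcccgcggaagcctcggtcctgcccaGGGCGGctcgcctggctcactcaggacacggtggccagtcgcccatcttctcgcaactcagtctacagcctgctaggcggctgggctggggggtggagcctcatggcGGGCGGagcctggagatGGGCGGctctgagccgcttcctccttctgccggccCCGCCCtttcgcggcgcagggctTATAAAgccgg
Nherf1, chr11:115163091-115163340: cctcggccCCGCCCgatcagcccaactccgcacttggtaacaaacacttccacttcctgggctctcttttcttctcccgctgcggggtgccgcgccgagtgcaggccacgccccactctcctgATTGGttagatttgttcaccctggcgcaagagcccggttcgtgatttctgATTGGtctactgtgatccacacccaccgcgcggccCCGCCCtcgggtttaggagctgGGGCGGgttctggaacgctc

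The motifs were searched on both strands in the 250 bases of all 32817 windows. The glucocorticoid receptor site (AGAACA, any 3 bases, then TGTNCT) was matched once in the first Sgk1 window and occurs in 12 windows, or 0.0366% of all. That window is 1 of 6 searched for Sgk1, and the others held no match to this site. The windows of Nherf1, Nherf2, Ezr, Slc9a3 and Cftr held none either. That window also holds an E-box (CACGTG, in 6.02% of windows), a GC box (GGGCGG, in 32.7%) and a TEAD site (GGAATG, in 12.6%). The window of the principal Sgk1 transcript has 4 GC boxes and a TATA box (TATAAA, in 12.4%) that begins 11 bases before the start, with 70.4% G and C. The Nherf1 window has 3 GC boxes and 2 CCAAT boxes (CCAAT, in 33.8%), with 62.8% G and C. No match was found in these 3 windows to the AP-1 site (TGANTCA, in 6.75%), the cAMP response element (TGACGTCA, in 1.55%), the forkhead site (GTAAACA, in 3.16%) or the SRF CArG box (in 1.47%). TPM are sums over all transcripts of a gene, so they do not tell which Sgk1 start was used.

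On GRCm38, Sgk1 (ENSMUSG00000019970) lies on chromosome 10 from 21882184 to 21999903 and Nherf1 (ENSMUSG00000020733, named Slc9a3r1 in that annotation) on chromosome 11 from 115163341 to 115181181, both on the plus strand and without an overlapping gene. Nherf2 (ENSMUSG00000002504, Slc9a3r2) lies on chromosome 17 from 24639286 to 24650327, and Ezr (ENSMUSG00000052397) on the same chromosome from 6738041 to 6782784, where it overlaps Sytl3 on the other strand. Cftr (ENSMUSG00000041301) is on chromosome 6 from 18170687 to 18322768 and contains an antisense gene and a processed pseudogene. Scnn1a (ENSMUSG00000030340) is also on chromosome 6, from 125320659 to 125344943, and Slc9a3 (ENSMUSG00000036123) is on chromosome 13 from 74121457 to 74169442. Nedd4l (ENSMUSG00000024589), on chromosome 18 from 64887705 to 65217828, overlaps 2 antisense genes. The libraries were prepared with a directional kit, and how kallisto treated strand is not given in the sources used here.

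The cells were first held against markers. Of 7 principal cell markers, 6 were under a mean of 1 TPM in each table, and 3 of them were listed at 0 in all libraries of a table. Aqp9, the water and glycerol channel that defines principal cells, had a mean of 0.168 TPM under flow, against 0.174 TPM in static cells. Of the epithelial markers, Krt18 was at 47.7 ± 20.4 TPM (SD, n = 6) in static cells while Epcam was listed at 0 in 4 of these libraries. Cd68, a lysosomal protein of macrophages also found in other cells, ranged from 10.1 to 64.0 TPM in the flow and static libraries and from 87.1 to 98.9 TPM in the siRNA libraries, while the leukocyte gene Ptprc was at most 0.0878 TPM in the former and 0.0570 TPM in the latter. The 4 macrophage and leukocyte markers summed to between 10.5 and 65.2 TPM in the flow and static libraries and to between 87.7 and 99.9 TPM in the siRNA libraries. The summed markers of the other types examined, clear, basal, fibroblast, smooth muscle and endothelial cells were at most 0.873, 13.2, 5.90, 5.61 and 1.81 TPM in any library. Most principal cell markers were thus under the filter, so these libraries describe DC2 cells in culture and carry little of the marker profile of the tissue.

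Between 15292 and 16682 genes were above 0 TPM in the 20 libraries. TPM hold no read totals, so the depth of each library and the counting error of each value are unknown. The paper gives only a mean number of reads per sample. For the library counted as flow replicate 6 the labels disagree. The title, the description and the column name give flow, and the treatment field gives static. Flow replicate 2 stood apart from the other flow libraries for Ndrg1, Tsc22d3 and Kcnk1, and the number of genes called was 87 without it against 12 with it. Of the 87, 76 were higher and 11 lower under flow, while the 12 were all higher.

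The levels of the members, in TPM and so per length of transcript, spanned from above 100 TPM down to 0. In static cells the order by mean was Ezr, Nherf1, Nedd4l, Sgk1, Nherf2, Cftr, Scnn1a and Slc9a3, and the ranges of neighbours overlapped only for Nedd4l and Sgk1. Under flow Sgk1 stood first, its range overlapping that of Ezr, and the range of Ezr overlapped that of Nherf1, while the other neighbours did not overlap. In both siRNA groups Sgk1 stood first without overlap with Ezr, and in both the ranges of Nedd4l and Nherf2 overlapped. The 2 tables were processed separately, so levels set across the experiments are descriptions. They differ beyond the members too, the claudin Cldn4 being at 30.3 ± 14.3 TPM in static cells (SD, n = 6) and at 2895 ± 204.9 TPM with control siRNA (SD, n = 4).

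Flow was then compared with static. Sgk1 was the member that changed, and it rose in every pair of libraries. Its level in static cells had a lowest value of 24.9 TPM, a median of 29.8 and a highest of 38.1, and under flow a lowest of 59.2, a median of 167 and a highest of 269.8. Every flow library was above every static library. The mean was 169 ± 87.1 TPM (SD, n = 6) under flow, against 31.1 ± 5.22 TPM (SD, n = 6) in static cells, and the fitted change was 2.23 on the log2(TPM + 1) scale (95% interval 1.56 to 2.89, limma adjusted p = 0.0107), or 4.68-fold. Of all 11388 genes tested, 0.105% were called higher, and 0.544% had groups that did not overlap. These are bulk libraries, in which more cells with Sgk1 mRNA and more Sgk1 mRNA per cell cannot be told apart.

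The size of the Sgk1 change differed by replicate number. In replicates 1, 2 and 3 the flow library was at 3.04, 2.12 and 2.84 times the static library of the same number, and in replicates 4, 5 and 6 at 8.52, 8.91 and 8.76 times. The difference lay in the flow libraries, which were at 116, 59.2 and 103 TPM in the first 3 replicates and at 269.8, 248 and 218 TPM in the others. The static libraries were at 38.1, 27.9 and 36.3 TPM and at 31.7, 27.8 and 24.9 TPM. Fitted within replicates 1 to 3, the change was 1.37 (limma adjusted p = 0.185) and within replicates 4 to 6 it was 3.08 (limma adjusted p = 6.66e-05). The labels name no batch for these replicate numbers, and the difference between the 2 ranges was not tested.

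Sgk1 was called in each of the 12 fits that left out 1 library, with changes from 2.05 to 2.49. With the library of conflicting labels counted as static, the change was 1.72 and was not called (limma adjusted p = 1.00). With no filter on low TPM it was 2.23 and also not called (limma adjusted p = 0.0760). The epithelial claudin Cldn4 also had a higher level in each flow library than in the static library of its number, with a range from 24.4 to 166 TPM under flow and from 17.5 to 50.0 TPM in static cells. Its change of 0.83 was not called (limma adjusted p = 0.998), but in the fit blocked on replicate number it was (limma adjusted p = 0.0426), as were 0.597% of all genes. The summed level of the 6 epithelial markers was between 75.3 and 304 TPM under flow and between 64.3 and 153 TPM in static cells, and their part in the result for Sgk1 was not tested.

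**Figure D1:**
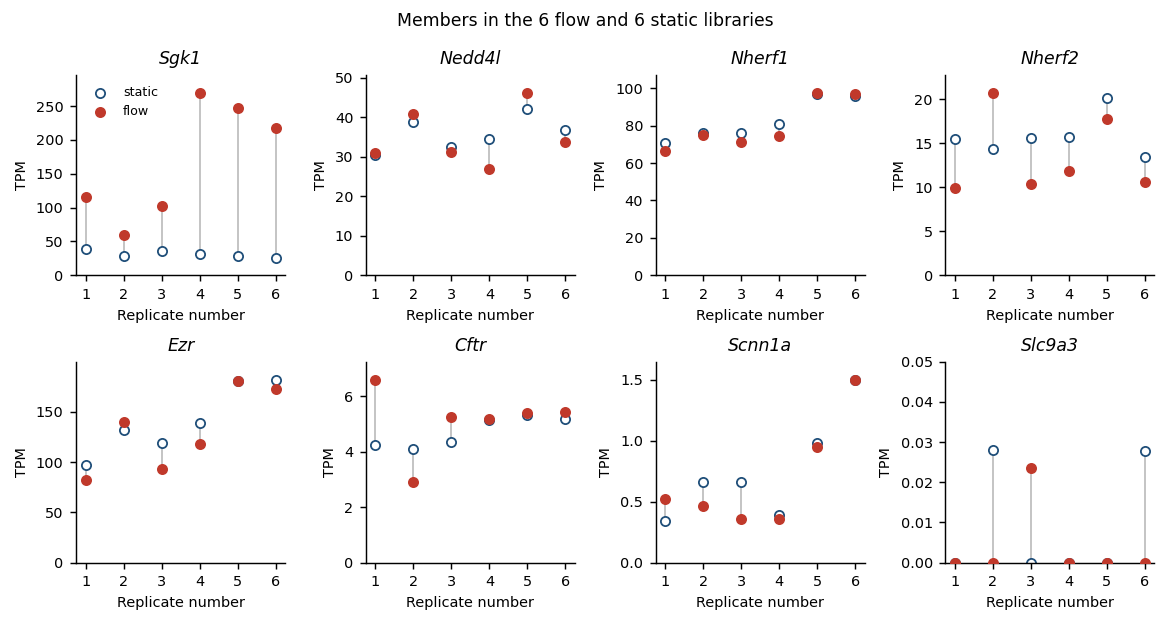
TPM of the 8 members (y axes, each from 0) by replicate number (x axes), with flow libraries as filled red points, static libraries as open blue points and a grey line joining libraries of the same number. Sgk1 is higher under flow in all 6 pairs, while Ezr, Nherf1 and Scnn1a move with the replicate number in both groups.

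Nedd4l, the ligase that SGK1 phosphorylates, was at 35.0 ± 7.21 TPM under flow, against 35.9 ± 4.28 TPM in static cells (SD, n = 6 each). Its lowest, median and highest values were 26.8, 32.5 and 46.2 TPM under flow and 30.4, 35.7 and 42.2 TPM in static cells, so the groups overlapped. The fitted change was -0.05 (95% interval -0.31 to 0.21, limma adjusted p = 0.998). The interval spans 0.804 to 1.16 of the static level.

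The scaffold Nherf1 stayed closest to its paired library among the 6 tested members. Flow libraries had a lowest value of 66.5, a median of 74.9 and a highest of 97.6 TPM, and static libraries 70.9, 78.4 and 97.1 TPM. Its flow library was between 0.922 and 1.01 times its static library in the 6 pairs, and the fitted change was -0.05 (95% interval -0.29 to 0.19, limma adjusted p = 0.998). Replicate number carried 96.7% of the variance of Nherf1 over the 12 libraries and flow 1.48%, where the medians over all genes tested were 70.01% and 3.85%. Replicate number would carry 45.45% on average if neither it nor flow had an effect.

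Nherf2, the related scaffold that can hold SGK1 beside NHE3, was lower in 5 of 6 flow libraries than in their static partner. Its lowest, median and highest values were 9.89, 11.2 and 20.7 TPM under flow and 13.4, 15.5 and 20.2 TPM in static cells. The exception was replicate 2, where flow was at 20.7 TPM and static at 14.3 TPM. The fitted change of -0.25 did not pass the test (95% interval -0.61 to 0.12, limma adjusted p = 0.998).

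Ezr, the actin linker of these scaffolds, ranged from 82.3 to 180.9 TPM under flow (median 129) and from 97.1 to 182 TPM in static cells (median 135.5), with a fitted change of -0.14 (95% interval -0.57 to 0.30, limma adjusted p = 0.998). It was lowest in replicate 1 of both groups and highest in replicates 5 and 6, and replicate number carried 92.8% of its variance. Cftr ranged from 2.91 to 6.59 TPM under flow (median 5.32) and from 4.11 to 5.33 TPM in static cells (median 4.75). Its fitted change was 0.07 (95% interval -0.23 to 0.38, limma adjusted p = 0.998), and its lowest and highest flow libraries were replicates 2 and 1.

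Scnn1a and Slc9a3 were under the mean of 1 TPM required for the fit across genes and were compared with two-sided exact permutation tests. Scnn1a ranged from 0.357 to 1.495 TPM under flow (median 0.495) and from 0.343 to 1.495 TPM in static cells (median 0.662), with an exact permutation p of 0.751, also after adjustment over 4 such tests. Its highest value in both groups belonged to replicate 6. Slc9a3 was listed at 0 in 5 of 6 flow and 4 of 6 static libraries and reached at most 0.0280 TPM (exact permutation p = 0.455, adjusted p = 0.606). At these levels a change of Slc9a3 was not detectable.

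Around SGK1, 11 lists of ion transport genes were followed, with the members counted where they belong to a list. They hold 92 genes other than the members, of which 68 passed the filter in the flow experiment. None of the 68 was called by limma, with or without the replicate block. Without the block, 2 had an unadjusted limma p-value under 0.05 (2.94%, against 3.85% of all genes tested). With the block, 1266 of all 11388 genes had an unadjusted limma p-value under 0.05. The lowest among the 68 was then 0.000859 (Per1, limma adjusted p = 0.0881). The median change of these 68 was -0.02, and that of all genes tested was -0.03.

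Of the other SGK kinases and the kinases that activate SGK1, 7 of 7 were tested and 0 called, with changes from -0.16 (Sgk2) to 0.02 (Rictor, a subunit of mTORC2). Sgk2 was at 7.07 ± 1.94 TPM under flow, against 7.84 ± 0.643 TPM in static cells (SD, n = 6 each). Of the corticosteroid receptors and steroid-responsive genes, 5 of 8 were tested and 0 called. Nr3c1, the glucocorticoid receptor, was at 62.6 ± 6.37 TPM under flow, against 61.4 ± 5.25 TPM in static cells (SD, n = 6 each), while the mineralocorticoid receptor Nr3c2 was at 1.47 ± 0.678 and 1.85 ± 0.547 TPM.

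In that list Per1, a clock gene that glucocorticoids can induce, had the highest change, 0.37 (95% interval -0.30 to 1.04, limma adjusted p = 0.998). Tsc22d3, the glucocorticoid-induced leucine zipper, had the lowest, -0.37 (95% interval -0.87 to 0.12, limma adjusted p = 0.998). Its flow libraries were between 11.9 and 18.2 TPM except replicate 2 at 40.8 TPM. Without that library Tsc22d3 was called lower under flow, at -0.61 (limma adjusted p = 0.0448). In that fit 11 of 11373 genes were called lower, against 0 in the comparison as reported. That library stands out by its Tsc22d3 value, so leaving it out is not a separate test of this gene. In 11 of the 12 fits without 1 library Tsc22d3 was not called.

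Of the SGK1 substrates, 6 of 7 were tested and 0 called. Ndrg1, whose phosphorylation is widely used as a readout of SGK1, had mRNA at 259 ± 153 TPM under flow, against 318 ± 75.9 TPM in static cells (SD, n = 6 each), a change of -0.40 (95% interval -0.96 to 0.15, limma adjusted p = 0.998). Its flow replicate 2 was at 567 TPM and the other flow libraries between 166 and 244 TPM. The kinase Wnk1, which acts on chloride cotransporters, was at the other end of the list with 0.04.

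Among the ligases and deubiquitinases that act on channels, 9 of 9 were tested and 0 called, with changes from -0.17 (Usp2, a deubiquitinase) to 0.01 (Wwp1, a ligase). Nedd4, the close relative of Nedd4l, was at 216 ± 27.3 TPM under flow, against 221 ± 29.3 TPM in static cells (SD, n = 6 each), above Nedd4l in every library. Of the PDZ scaffolds, 5 of 7 were tested and 0 called, from -0.25 (Nherf2) to 0.04 (Snx27, which sorts PDZ ligands back to the membrane). Of ezrin, radixin, moesin and their partners, 10 of 10 were tested and 0 called, from -0.14 (Ezr) to 0.29 (Cd44, a membrane protein that binds them).

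Of the genes of chloride and bicarbonate transport, 12 of 15 were tested and 0 called. Lrrc8a, a subunit of the volume-regulated anion channel, was at 15.6 ± 2.73 TPM under flow, against 12.5 ± 1.804 TPM in static cells (SD, n = 6 each), with a change of 0.29 (limma unadjusted p = 0.0281, adjusted p = 0.998), and the chloride channel Clcn2 was lowest at -0.22. Of the sodium pump and potassium channels, 5 of 10 were tested and 0 called, from -0.13 (Kcnk1, a potassium channel) to 0.15 (Fxyd5, a regulator of the pump). Of the cAMP pathway upstream of CFTR, 9 of 11 were tested and 0 called, from -0.20 (the phosphodiesterase Pde4b) to 0.07 (the adenylyl cyclase Adcy9).

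In the siRNA experiment, the targeted gene was read first. Ift88 was at 4.14 ± 0.0541 TPM (SD, n = 4) with control siRNA and 1.30 ± 0.326 TPM (SD, n = 4) with Ift88 siRNA, or 31.3% of the control mean, and no library went against its label. Nherf1 fell. It was at 76.9, 73.1, 79.2 and 71.5 TPM in the control libraries and at 53.9, 45.5, 45.6 and 41.4 TPM in the Ift88 siRNA libraries, and all 4 of the latter were below all 4 controls. The means were 75.2 ± 3.51 and 46.6 ± 5.22 TPM (SD, n = 4 each), and the fitted change was -0.68 (95% interval -0.86 to -0.51, limma adjusted p = 0.00223), or 0.622 of the control level. Of the 11209 genes tested, 0.0714% were called lower, and 8.58% had groups that did not overlap.

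The Nherf1 call held in each of the 8 fits that left out 1 library, with changes from -0.75 to -0.63. Its level in control siRNA cells lay within the range of the flow and static libraries, 66.5 to 97.6 TPM, and the Ift88 siRNA libraries lay below that range.

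**Figure D2:**
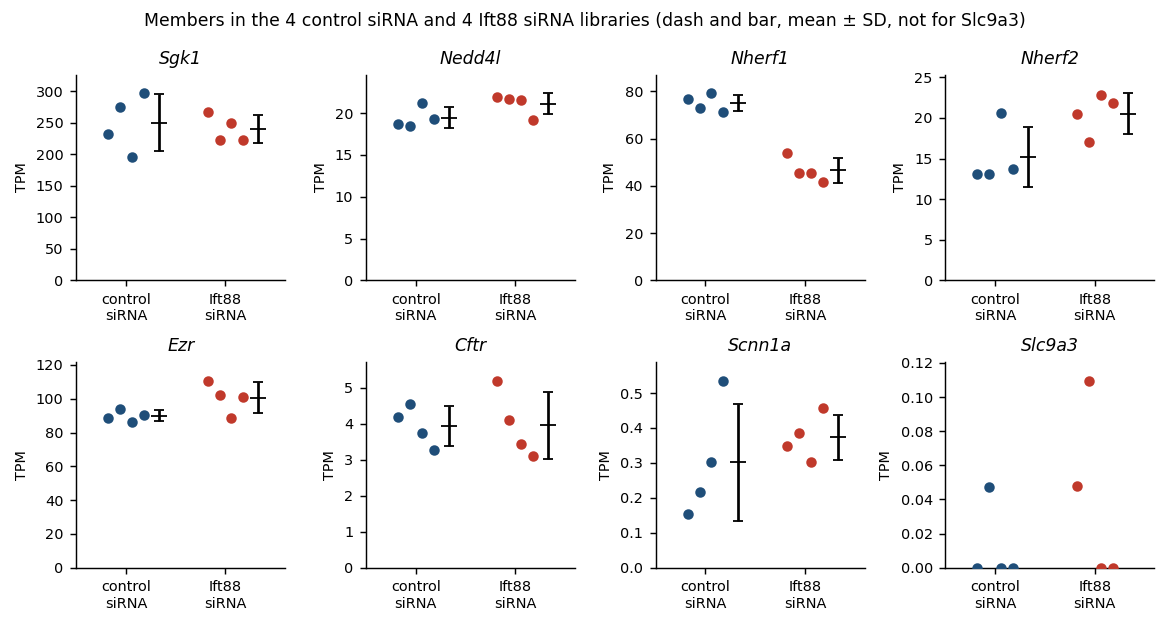
TPM of the 8 members (y axes, each from 0) in the 4 control siRNA libraries (blue points) and the 4 Ift88 siRNA libraries (red points), with dash and bar for mean ± SD except for Slc9a3, which is listed at 0 in most libraries. Nherf1 is lower in all 4 Ift88 siRNA libraries, and Sgk1 overlaps between the groups.

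Nherf2 had the opposite sign. It was at 13.1, 13.1, 20.7 and 13.7 TPM in the control libraries and at 20.5, 17.0, 22.8 and 21.8 TPM in the Ift88 siRNA libraries. Control replicate 3 lay among the Ift88 siRNA values, and the other 3 controls lay below all of them. The change of 0.43 (95% interval 0.12 to 0.74) had an unadjusted limma p-value of 0.00958 and did not pass adjustment (adjusted p = 0.209).

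Set side by side within libraries, Nherf1 was between 3.84 and 5.88 times Nherf2 in the control siRNA libraries and between 1.90 and 2.67 times in the Ift88 siRNA libraries. Nherf2 made up 14.5% to 20.7% of the sum of both scaffolds in controls and 27.2% to 34.5% with Ift88 siRNA. The sum itself was 90.3 ± 6.69 TPM in controls and 67.1 ± 5.49 TPM with Ift88 siRNA (SD, n = 4 each). In the flow experiment the Nherf2 share ranged from 9.82% to 21.6% under flow and from 12.3% to 17.9% in static cells, so those groups overlapped.

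Sgk1 was at 233, 275, 196 and 297 TPM with control siRNA and at 268, 223, 250.4 and 222 TPM with Ift88 siRNA. The groups overlapped, and the fitted change was -0.04 (95% interval -0.28 to 0.20, limma adjusted p = 0.911). The interval spans 0.821 to 1.15 of the control level. All 8 libraries were above every static library of the other experiment, and 5 of them lay within the range of flow replicates 4 to 6. The siRNA experiment has no static group, so whether Sgk1 responds to flow with Ift88 siRNA was not tested.

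Ezr was at 88.6, 94.0, 86.1 and 90.6 TPM with control siRNA and 111, 102, 88.8 and 101 TPM with Ift88 siRNA, where 3 of 4 libraries were above all controls. Its change was 0.16 (95% interval 0.00 to 0.31, limma unadjusted p = 0.0441, adjusted p = 0.344). Nedd4l was at 18.8, 18.5, 21.2 and 19.3 TPM with control siRNA and 22.0, 21.6, 21.6 and 19.2 TPM with Ift88 siRNA, a change of 0.11 (95% interval -0.07 to 0.30, limma adjusted p = 0.585). Cftr was at 4.18, 4.54, 3.74 and 3.26 TPM and at 5.20, 4.10, 3.43 and 3.10 TPM, and its fitted change was -0.0035 (95% interval -0.33 to 0.32, limma adjusted p = 0.996).

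Scnn1a and Slc9a3 were under the filter here too. Scnn1a was at 0.153, 0.217, 0.304 and 0.536 TPM in controls and 0.349, 0.386, 0.302 and 0.456 TPM with Ift88 siRNA, and the groups overlapped (exact permutation p = 0.429, adjusted p = 0.606). Slc9a3 was listed at 0 in 3 controls and 2 Ift88 siRNA libraries and reached at most 0.1097 TPM (exact permutation p = 0.429, adjusted p = 0.606). With 4 libraries against 4, the smallest p-value this test can give is 0.0286.

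**Figure D3:**
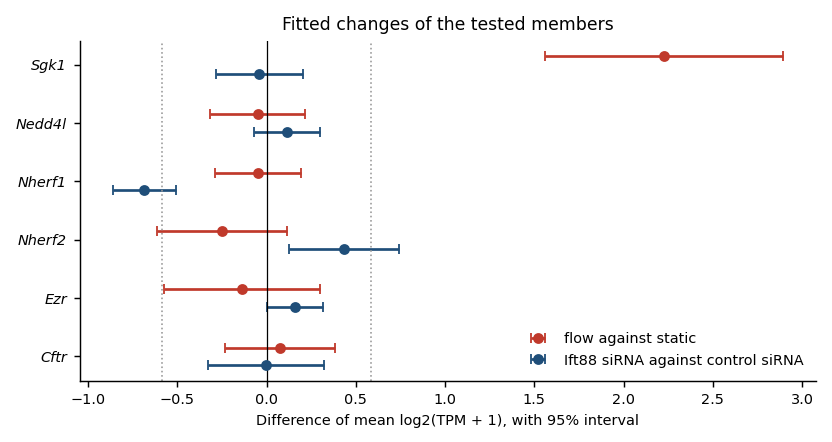
Fitted difference of mean log2(TPM + 1) with 95% interval (x axis) for the 6 members that passed the filter (y axis), for flow against static in red and Ift88 siRNA against control siRNA in blue; dotted lines mark a 1.5-fold change. The interval of Sgk1 under flow and the estimate of Nherf1 with Ift88 siRNA lie beyond those lines, and the other intervals include 0 except those of Nherf2 and Ezr with Ift88 siRNA.

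Of the 92 other genes on the lists, 67 were tested in the siRNA experiment and 0 were called by limma, while 14 had an unadjusted p-value under 0.05 (20.9%, against 13.9% of all genes tested). Of these 14, 8 were higher and 6 lower. The groups did not overlap for 8 of the 67 (11.9%, against 8.58% of all genes tested). The median change was 0.03, and that of all genes tested was 0.02.

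One of these genes, Cd44, met the adjusted p-value without the fold change. It was at 162 ± 5.34 TPM with control siRNA and 129 ± 5.14 TPM with Ift88 siRNA (SD, n = 4 each), a change of -0.33 (limma adjusted p = 0.0236), and was named after its values were seen. On the same list, with 10 of 10 tested and 0 called, Rdx, the ezrin relative radixin, had a change of -0.34 (95% interval -0.59 to -0.09, limma adjusted p = 0.223). Ezr itself stood at the upper end of that list. Among the PDZ scaffolds, 5 of 7 were tested, and Nherf1 was called lower and none higher.

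Of the steroid list, 4 of 8 genes were tested and 0 called. Tsc22d3 was at 30.2 ± 1.52 TPM with Ift88 siRNA, against 22.9 ± 2.65 TPM with control siRNA, without overlap, a change of 0.39 (95% interval 0.19 to 0.59, limma adjusted p = 0.0852). Nr3c1 was lower at 111 ± 9.39 against 128 ± 7.68 TPM (SD, n = 4 each), also without overlap, a change of -0.20 (limma adjusted p = 0.247). Of the SGK kinases and their activators, 7 of 7 were tested and 0 called, from -0.15 (Pdpk1, which encodes PDK1) to 0.24 (Sgk2). Of the SGK1 substrates, 6 of 7 were tested and 0 called, from -0.29 (Ndrg1) to 0.29 (the transcription factor Foxo3).

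Among the ligases and deubiquitinases, 9 of 9 were tested and 0 called, from -0.07 (Ndfip2, an adaptor of these ligases) to 0.26 (Usp2). Of chloride and bicarbonate transport, 11 of 15 were tested and 0 called, from -0.24 (Clcn2) to 0.32 (the carbonic anhydrase Car12). Of the sodium pump and potassium channels, 4 of 10 were tested and 0 called, from -0.39 (Fxyd5) to 0.20 (Atp1b1, the beta subunit of the pump). Of the cAMP pathway, 10 of 11 were tested and 0 called, from -0.26 (Prkaca, a catalytic subunit of protein kinase A) to 0.21 (Pde4b).

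**Figure D4:**
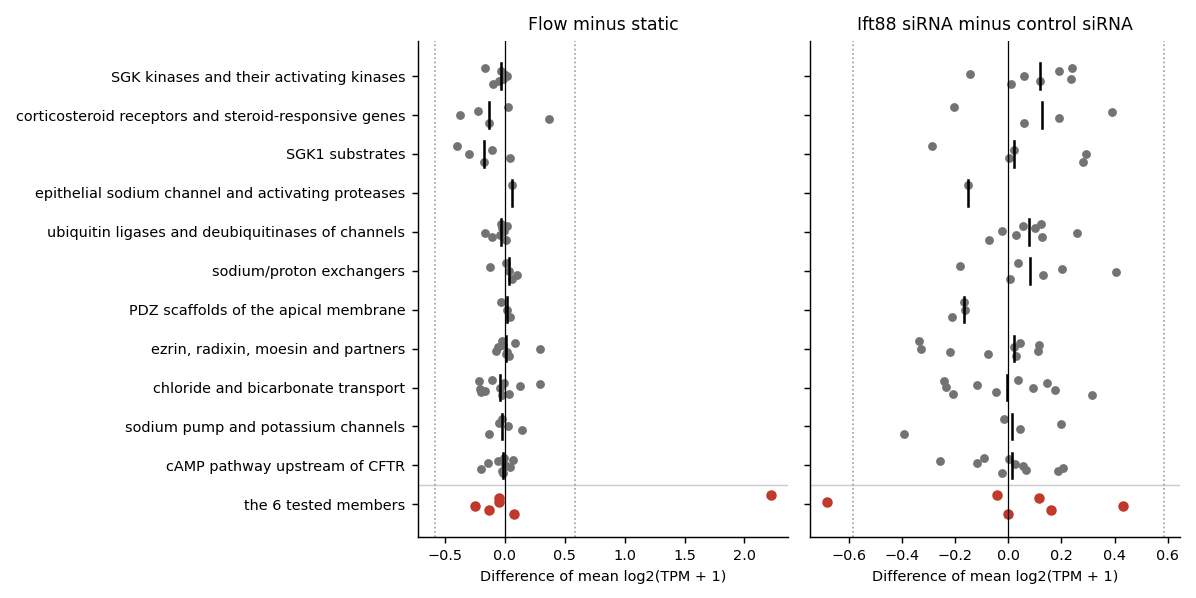
Difference of mean log2(TPM + 1) (x axes) for tested genes of the 11 lists (grey points, members left out, with the list median as a black bar) and for the 6 tested members (red points, lowest line), for flow minus static at left and Ift88 siRNA minus control siRNA at right. No grey point lies beyond the dotted lines at 1.5-fold, while Sgk1 at left and Nherf1 at right do.

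The genes that NHERF and SGK1 proteins are best known to act on were then read by level. Of the 9 sodium/proton exchangers, 5 were tested in the flow experiment and 6 in the siRNA experiment, with 0 called in either. Slc9a3 and its apical relative Slc9a2 were at most 0.0280 and 0.0548 TPM in the flow and static libraries, and Slc9a4 was listed at 0 in all 12 of these libraries. The largest changes on the list were -0.13 (Slc9a5) and 0.10 (Slc9a7) with flow and -0.18 (Slc9a5) and 0.41 (Slc9a7, limma adjusted p = 0.145) with Ift88 siRNA. Slc9a7 encodes an exchanger of the Golgi, and its siRNA groups did not overlap.

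Of the sodium channel, the alpha subunit Scnn1a was above 0 in all 12 flow and static libraries, at the levels given above. Its beta subunit Scnn1b was at most 0.0476 TPM in the flow and static libraries, and its gamma subunit Scnn1g was listed at 0 in all 12. Of the 7 genes of the channel and its activating proteases, the protease Furin was the 1 tested, at 49.5 ± 2.51 TPM under flow, against 47.6 ± 5.64 TPM in static cells (SD, n = 6 each), with a change of 0.06. With Ift88 siRNA its change was -0.15 (limma adjusted p = 0.485). Of the 7 PDZ scaffolds, Nherf1 had the highest mean in static cells, 82.8 ± 11.1 TPM (SD, n = 6). Snx27 was at 43.5 ± 3.77 TPM, Gopc at 19.5 ± 1.44 TPM, Nherf2 at 15.8 ± 2.33 TPM and Shank2 at 3.55 ± 0.798 TPM (SD, n = 6 each), while Pdzk1 and Nherf4 were at most 0.474 and 0.103 TPM.

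Of ezrin and its relatives, moesin had the highest mean in static cells. Msn, moesin, was at 242 ± 26.7 TPM, Ezr at 142 ± 33.9 TPM and Rdx at 101 ± 7.66 TPM in static cells (SD, n = 6 each). The range of Msn lay above that of Ezr, and the ranges of Ezr and Rdx overlapped.

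**Figure D5:**
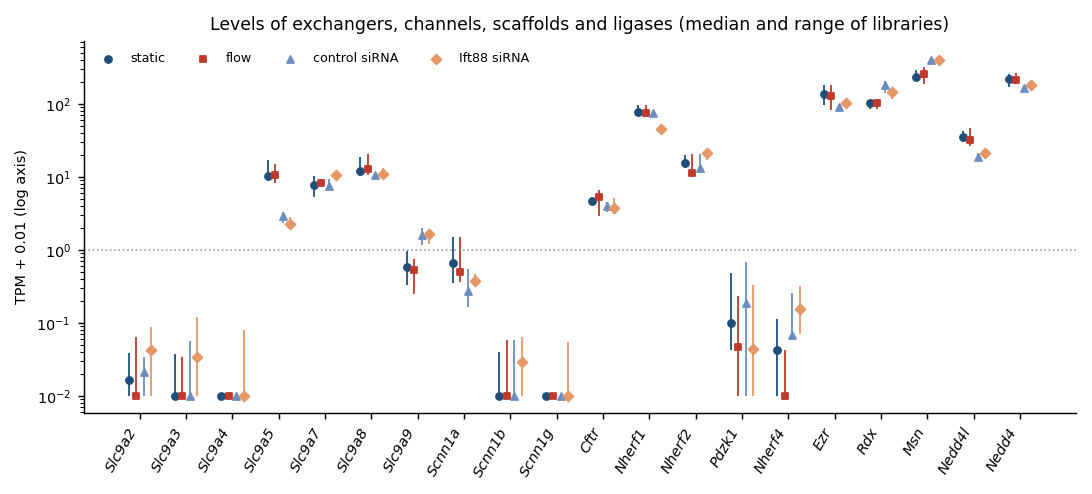
TPM + 0.01 (y axis, log scale) of exchangers, channel subunits, scaffolds, ezrin relatives and ligases (x axis), with markers for the median and lines for the range of the libraries of each of the 4 groups; the dotted line marks 1 TPM. Slc9a3, Scnn1b and Scnn1g lie near the bottom, while Nherf1, Ezr and Nedd4l lie above 10 TPM in every group.

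The genes whose levels were most like those of Sgk1 over the 12 flow and static libraries were Ccn1 (Pearson r = 0.982 of log2(TPM + 1)), Cited2 (0.971), Dusp1 (0.964), Klf6 (0.963) and Phlda1 (0.963), out of 11387 other genes. The most like Nherf1 over the 8 siRNA libraries were Ift88 (0.992), Ywhah (0.988), Ncoa5 (0.988), mt-Nd2 (0.985) and Dnajc27 (0.979), out of 11208. These are descriptions without a test, since the libraries share their groups and replicate numbers. Ccn1, a secreted matrix protein, was at 1644 TPM under flow on average, against 385 TPM in static cells.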

How the data were processed

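The deposited values are TPM, one table per experiment, summing to 1000000 in each of the 20 libraries. The paper's methods name Trimmomatic, kallisto on the Ensembl mouse transcriptome, tximport and DESeq2, and the submitters' processing notes name fastp 0.20.0, FastQC 0.11.8, MultiQC 1.8 and kallisto 0.46.2. TPM made by the authors hold no counts, so no count test was run.

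From the deposited TPM, log2(TPM + 1) was compared with limma 3.58.1 in R 4.3.3 (eBayes with trend) for all genes whose mean reached 1 TPM, and p-values were adjusted over them by Benjamini-Hochberg. Called means an adjusted p under 0.05 and more than 1.5-fold. These fold changes understate the change of low genes. Members under the filter were compared by two-sided exact permutation. Scripts were tested on simulated data. Levels and figures were made in Python 3.11.15 (matplotlib 3.10.9, numpy 2.4.6, pandas 2.3.3).

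Deviations of flow and static libraries of the same number from their group means correlated at 0.294, 0.463, 0.425, 0.468, 0.662 and 0.600 over genes. Libraries were best with their own number in replicates 2, 4, 5 and 6, but not in 1 and 3. Pairs here are libraries of the same number, and the paper's methods name no pairing. With the replicate block, 68 genes were called (0.597%) against 12 (0.105%) without it.

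The members and lists were chosen with earlier results of these data known. Besides the 8 members and Ift88, the genes named are those of each list with the highest and lowest fitted change, marker genes, relatives given by level, and the 5 genes most like Sgk1 and Nherf1. Alternatives were a pseudocount of 0.1, no filter, median-of-ratios scaling, library weights, the block, no fold threshold, each library left out, replicates 1 to 3 or 4 to 6 alone, and flow replicate 6 as static. Positions come from GENCODE M21 and promoters from RefSeq, both GRCm38, while the authors used a later annotation. Promoter windows of Scnn1a and Nedd4l were not analysed here. Some items are not reported here.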

Additional observations from a re-analysis of the deposited data

Results flagged for a closer look

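Of 110 groups examined (members, named list genes and Ift88 in each group of 4 or 6 libraries), 13 held 1 library far from the others by Dixon's test at the 95% level, a test that marks about 1 group in 20 by chance. Flow replicate 2 was the far library for Ndrg1 (567 TPM, others 166 to 244), Tsc22d3 (40.8 TPM, others 11.9 to 18.2) and Kcnk1 (4.62 TPM, others 0.584 to 1.94). Flow replicate 5 was far for Pde4b at 14.0 TPM and flow replicate 3 for Slc9a3 at 0.0237 TPM, the others being listed at 0.

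In static cells, replicate 5 was far for Nherf2 at 20.2 TPM (others 13.4 to 15.7) and for Cd44 at 45.6 TPM, and replicate 6 for Sgk2 at 6.61 TPM. In the siRNA experiment, control replicate 3 was far for Nherf2 at 20.7 TPM (others 13.1 to 13.7) and for Furin at 31.6 TPM, and control replicate 2 for Slc9a3 at 0.0472 TPM. Ift88 siRNA replicate 4 was far for Nedd4l at 19.2 TPM (others 21.6 to 22.0) and for Rdx at 117 TPM. The causes were not tested.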

How the results depend on the processing

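The Nherf1 call with Ift88 siRNA held in every alternative and every fit without 1 library. Sgk1 under flow held without any 1 library, but not with no filter (2.23, adjusted p = 0.0760), with flow replicate 6 as static (1.72, adjusted p = 1.00) or within replicates 1 to 3 (1.37, adjusted p = 0.185), and members called by limma were then 0 in place of 1. Genes called under flow, 12 in the comparison as reported, were 2 with no filter, 28 with median-of-ratios scaling, 86 with library weights, 68 with the replicate block, 0 with flow replicate 6 as static (181 at an unadjusted p under 0.05), 5 within replicates 1 to 3 and 56 within replicates 4 to 6. Leaving out 1 library gave 5 (without flow replicate 4) to 87 (without flow replicate 2). Called lower were 11 genes with library weights and 11 without flow replicate 2, against 0 as reported. Genes called with Ift88 siRNA, 25 as reported (17 higher, 8 lower), were 6 with no filter, 48 with library weights and 71 with no fold threshold, and 11 to 23 without 1 library. Median-of-ratios scaling gave 12 higher and 10 lower. The siRNA libraries shared only a number (correlations 0.0464, 0.00276, 0.259 and 0.176, best with their own number in replicates 3 and 4), and the replicate block gave 44. The block changed no call of a member. Tsc22d3 under flow kept its sign without 1 library (-0.61 to -0.27) and was called lower without flow replicate 2.

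Small changes turned sign. With flow replicate 6 as static, they were -0.0388 for Rictor, -0.0189 for Wnk1, -0.00992 for Wwp1, 0.0245 for Usp2, -0.0672 for Fxyd5 and 0.0472 for Kcnk1. Within replicates 1 to 3 they were 0.0156 for Nedd4l, 0.0300 for Usp2 and 0.104 for Slc9a5, and within replicates 4 to 6 -0.0517 for Rictor, -0.0265 for Wnk1 and -0.113 for Slc9a7. With library weights they were -0.00695 for Wwp1, -0.0427 for Adcy9 and, with Ift88 siRNA, 0.0315 for Cftr. Without 1 library, flow changes ran from -0.106 to 0.00398 for Nherf1, -0.133 to 0.0194 for Nedd4l, -0.0590 to 0.0885 for Rictor, -0.0223 to 0.0940 for Wnk1, -0.0362 to 0.0639 for Wwp1, -0.000811 to 0.0857 for Snx27, -0.361 to 0.00466 for Kcnk1, -0.0235 to 0.157 for Adcy9 and -0.18 to 0.0502 for Scnn1a. With Ift88 siRNA they ran from -0.153 to 0.0470 for Sgk1 and -0.117 to 0.0821 for Cftr. The causes were not tested. The depth of each library is unknown, and members under 1 TPM were not resolved.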
